A study of Mus musculus with 6 samples.

Results

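Cathepsins are the main proteases of the lysosome, and 10 cathepsin genes (Ctsa, Ctsb, Ctsc, Ctsd, Ctsf, Ctsh, Ctsk, Ctsl, Ctss and Ctsz) were followed here in whole mouse aorta. They were taken by symbol from a table of 35275 genes, all 10 were found, and all 10 passed the filter of an average of 1 FPKM or more (reads per kilobase of gene length, scaled by library depth) that left 12165 genes for testing. The study sequenced total RNA from aortas of wild-type mice and of EC-Jag1KO mice, with 3 libraries in each group. EC-Jag1KO names a genotype in which the Notch ligand Jagged1 is lost from mature endothelial cells, and the comparison asks how that loss alters the vessel. The sources used here do not name the Cre driver, the time of deletion, the age or the strain. Whether each library is a different animal is not stated in the labels, so the p-values reflect the spread among these samples alone, part of which may be technical.

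Most cathepsins are cysteine proteases of the papain type (B, C, F, H, K, L, S and Z), while cathepsin D is an aspartic protease and cathepsin A a serine carboxypeptidase. They are made as inactive proenzymes, carried to the lysosome by mannose 6-phosphate receptors, activated at acid pH and held in check outside it by cystatins. In the arterial wall, cathepsins K, L and S are known as enzymes that can cut elastin and collagen when smooth muscle cells or macrophages release them.

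Each library held 19889910 to 25914325 reads in genes, a depth recovered from the steps of the FPKM values. Jag1 itself stood at 9.86, 10.6 and 16.9 FPKM in wild-type and at 13.5, 9.42 and 19.6 FPKM in EC-Jag1KO aorta, so that the groups overlapped. Other cells of the wall make Jag1 and the value covers the whole gene, which leaves the endothelial deletion unchecked by it. EC-Jag1KO replicate 3 stood apart from the other 5 libraries on the first principal component, which held 32.0% of the variance, and wild-type replicate 2 on the second, with 28.9%. Xist was above 1 FPKM in replicate 3 of each group and in no other library, which splits each group into 1 Xist-expressing library and the rest. For each cathepsin the log2 fold change without the 2 Xist-expressing libraries, and the difference between those 2, therefore stand beside the value over all 6.

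Markers of the cell types that a dissected aorta can hold were summed per library. Smooth muscle markers, which dominate the tissue, summed to 14204 to 14891 FPKM in wild-type and 11809 to 14027 FPKM in EC-Jag1KO libraries, with no overlap. Of these 8 markers 7 lay lower and 1 higher, and 5 had groups that did not overlap, all lower. Of those 5, 3 (Smtn, Lmod1 and Mylk) had an unadjusted p under 0.05 in limma. Over all tested genes 6.73% lay lower with no overlap, and 3.46% lay lower with an unadjusted p under 0.05. Macrophage markers (17, of which 16 were tested, 13 higher and 3 lower) summed to 256 to 335 against 299 to 337 FPKM. Fibroblast markers (9, of which 6 lay higher and 3 lower) summed to 1546 to 1846 against 1663 to 2152 FPKM, and endothelial markers (8) to 277 to 404 against 318 to 402 FPKM. Adipocyte markers (8) varied widely, from 342 FPKM in wild-type replicate 2 to 2080 FPKM in wild-type replicate 3, with EC-Jag1KO libraries at 1038 to 2024 FPKM. Cardiac muscle markers (6) summed to 4.13 to 17.5 against 7.92 to 38.0 FPKM and Schwann cell markers (5) to 7.42 to 11.6 against 10.3 to 12.3 FPKM. Lymphocyte markers (8) summed to 1.03 to 2.28 against 0.633 to 1.53 FPKM. Mesothelial markers (5), at 0.400 to 0.530 FPKM in wild-type and 1.24 to 2.51 FPKM in EC-Jag1KO libraries, were near 0 throughout and did not overlap either.

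The 10 genes spanned a wide range of levels, all per length of gene, and kept nearly the same order in each library. Ctsd was highest, with a wild-type mean of 348 FPKM, above 99.0% of tested genes, followed by Ctsb at 184, Ctsl at 140, Ctsz at 92.7, Ctsh at 67.7, Ctsa at 43.1, Ctsf at 35.5, Ctsk at 24.98, Ctsc at 17.9 and Ctss at 10.1 FPKM. Neighbours in this order differed by ratios of wild-type means from 1.21 (Ctsa over Ctsf) to 1.89 (Ctsd over Ctsb). No pair of neighbours overlapped across the 3 wild-type libraries. Over all 6 libraries the order of each neighbouring pair held in 6 of 6 libraries, except for Ctsf over Ctsk, which held in 4 of 6. In EC-Jag1KO replicates 1 and 3 Ctsk, the collagen-cleaving member, lay above Ctsf.

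**Figure D1:**
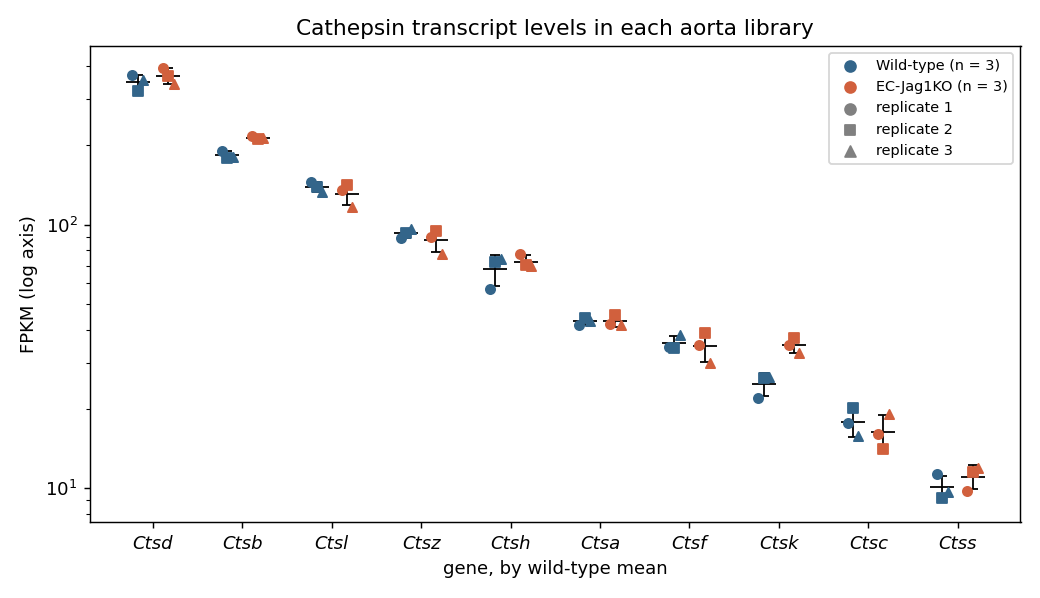
FPKM on a log axis for the 10 cathepsins in each of the 6 libraries, ordered by wild-type mean, with the mean (horizontal line) and SD (vertical bar) of each group of 3 and a marker shape for each replicate number. Levels run from about 9.22 FPKM for Ctss to 395 FPKM for Ctsd, and the groups separate for Ctsb and Ctsk alone.

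Of the 10 cathepsins, 0 passed limma's test at an adjusted p of 0.05, as did 0 of the 12165 genes tested (0%), where adjusted p reached 0.232 at the lowest. The unadjusted p was under 0.05 for 1 cathepsin, Ctsk, against 7.71% of all tested genes (4.25% higher and 3.46% lower in EC-Jag1KO aorta). The 2 groups of libraries did not overlap for 2 of the 10, Ctsk and Ctsb, both higher in EC-Jag1KO aorta, against 13.6% of all tested genes in either direction, 6.84% higher and 6.73% lower. With 10 genes, counts of 1 and 2 are near these shares. The log2 fold change was above 0 for 5 of the 10 members, as for 50% of all tested genes, and the members' median of 0.04 lay beside a median of -0.00022 over all tested genes. Apart from Ctsk and Ctsb the estimates ran from -0.12 to 0.13.

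**Figure D2:**
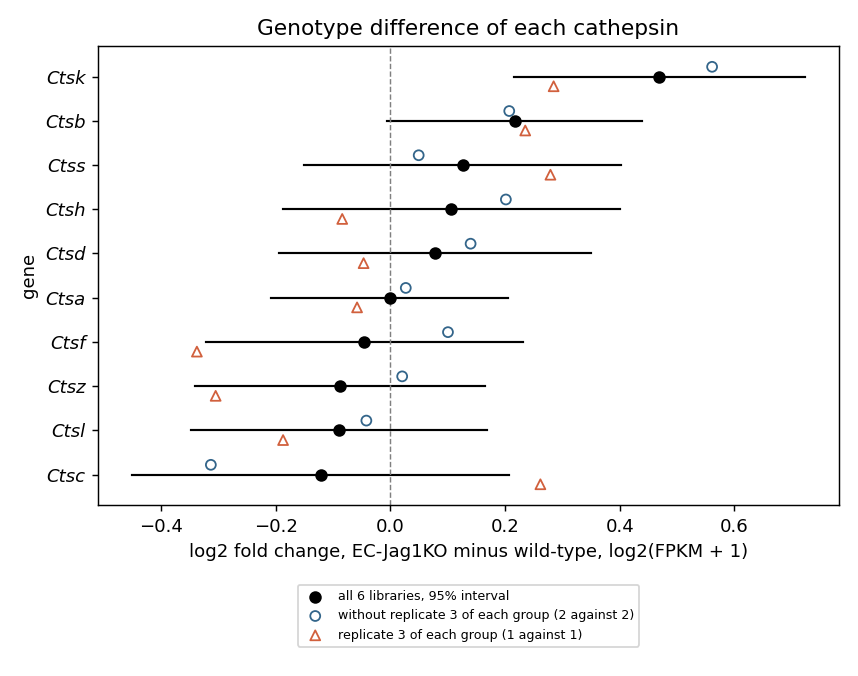
Log2 fold change (EC-Jag1KO minus wild-type, on log2(FPKM + 1)) of each cathepsin with its 95% interval from limma over all 6 libraries (filled circles), beside the difference without replicate 3 of each group (open circles, 2 against 2) and between the replicate 3 libraries (open triangles, 1 against 1). The interval of Ctsk, from 0.22 to 0.72, is the only one of the 10 that lies wholly above 0, and the open circle and the triangle lie farthest apart for Ctsc and Ctsf.

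Ctsk encodes cathepsin K, a potent collagenase and the main matrix protease of osteoclasts, which also cuts elastin. The gene (ENSMUSG00000028111) lies on the plus strand of mm10 at chr3:95499286-95509362. Its level was 22.1, 26.3 and 26.5 FPKM in the wild-type libraries and 34.9, 37.2 and 32.5 FPKM in the EC-Jag1KO libraries, on 774 to 1250 reads each. The lowest EC-Jag1KO library stood above the highest wild-type library. The means were 24.98 ± 2.50 and 34.9 ± 2.35 FPKM (SD, n = 3 each), 39.7% higher in EC-Jag1KO aorta. The log2 fold change was 0.47 (SE 0.11, 95% interval 0.22 to 0.72), with an unadjusted p of 0.0031 and an adjusted p of 0.402 over all tested genes in limma, where Ctsk ranked 90 by p. With each library left out in turn the log2 fold change was 0.39 to 0.52, with adjusted p of 0.329 to 0.922. It was 0.56 without the Xist-expressing libraries, and the 1 pair of Xist-expressing libraries differed by 0.28. In bulk tissue, more cells that make cathepsin K and more of its RNA per cell cannot be told apart. Among 9 fibroblast markers, Pdgfra (17.7 to 21.7 against 14.8 to 15.8 FPKM) and Lum (70.1 to 76.2 against 58.1 to 66.96 FPKM) lay higher in EC-Jag1KO libraries with no overlap, Fbln1 (35.03 to 44.2 against 62.7 to 73.96 FPKM) lay lower with no overlap, and the other 6 overlapped. Among 16 tested macrophage markers, Cd68 (6.74 to 7.50 against 4.68 to 6.02 FPKM) was the only one whose groups did not overlap, and Adgre1 (-0.29), Cd14 (-0.19) and Cd163 (-0.10) had log2 fold changes below 0. The share without overlap was 13.6% over all tested genes, 6.84% higher and 6.73% lower in EC-Jag1KO aorta. The smooth muscle sum lay lower in each EC-Jag1KO library. Acp5, the acid phosphatase that osteoclasts make together with cathepsin K, was at 14.5, 7.38 and 25.02 FPKM in wild-type and 16.5, 11.2 and 5.24 FPKM in EC-Jag1KO libraries. These marker genes were named after their values were seen, and the part of any of them in the level of Ctsk was not tested.

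Ctss, which encodes cathepsin S, an elastase that stays active at neutral pH and trims the class II invariant chain in antigen-presenting cells, is the neighbour of Ctsk on chromosome 3. It lies at chr3:95526786-95556403, also on the plus strand, 17423 bases beyond the end of Ctsk. It was the lowest of the 10, at 11.3, 9.22 and 9.70 FPKM in wild-type and 9.77, 11.5 and 11.99 FPKM in EC-Jag1KO libraries, on 290 to 421 reads. The groups overlapped, and the log2 fold change was 0.13 (95% interval -0.15 to 0.40, adjusted p = 0.853 in limma). The sign of this small difference depended on the weighting of libraries, at -0.07 with array weights, and it was 0.05 without the Xist-expressing libraries and 0.28 between them. The log2 ratio of Ctsk to Ctss was 0.97, 1.51 and 1.45 in wild-type and 1.84, 1.70 and 1.44 in EC-Jag1KO libraries. Its means differed by 0.35, with p = 0.3 in an exact two-sided permutation test, where 3 against 3 cannot go below 0.1, so a difference between the neighbours in their response was not shown. The difference of the ratio was 0.18 without wild-type replicate 1, at most 0.46 with another library left out, and 0.53 without both Xist-expressing libraries. Of 10 genes listed within 100000 bases of the pair, themselves included, 5 were tested. The flanking genes Arnt (20.7 ± 0.753 against 21.4 ± 2.03 FPKM, n = 3 each), which encodes the partner of hypoxia-inducible factors, Golph3l (12.9 ± 1.49 against 12.2 ± 1.34 FPKM), which encodes a Golgi protein, and Ensa (55.6 ± 0.895 against 51.9 ± 2.77 FPKM), which encodes a phosphatase inhibitor, all overlapped between the groups.

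Promoter sequence was read for the members from RefSeq (GRCm38.p6), as windows from 250 bases before to 50 after an annotated start, and 8 of the 10 members matched, with 9 windows. Ctsb and Ctsh had no entry. Motifs were counted on both strands. CACGTG is the core of the CLEAR element, through which TFEB acts on lysosomal genes, and TCACGTGA is a palindrome around that core. TCATGTG is the core of the M-box of MITF, and GAGGAAGT is a box bound by the myeloid factor PU.1. The general promoter elements searched were the TATA box as TATAAA, the GC box, to which Sp1 binds, as GGGCGG, and the pentamer bound by NF-Y as CCAAT. The windows of Ctsk and Ctss are shown because these neighbours are the matrix-cleaving members with the largest and a small difference between the genotypes, and those of Ctsd and Ctsa because they hold the palindrome. All 4 are 5′ to 3′ on the gene's strand, at chr3:95498960-95499259 (plus), chr3:95526536-95526835 (plus), chr7:142387778-142388077 (minus) and chr2:164833523-164833822 (plus, the second of 2 starts of Ctsa), and capitals mark matches to these motifs on either strand, with only the core of the palindrome in capitals.
Ctsk: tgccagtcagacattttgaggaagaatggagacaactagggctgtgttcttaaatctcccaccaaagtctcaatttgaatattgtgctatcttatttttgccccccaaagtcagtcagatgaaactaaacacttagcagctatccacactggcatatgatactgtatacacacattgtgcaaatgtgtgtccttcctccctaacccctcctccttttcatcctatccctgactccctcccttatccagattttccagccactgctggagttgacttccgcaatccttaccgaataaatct
Ctss: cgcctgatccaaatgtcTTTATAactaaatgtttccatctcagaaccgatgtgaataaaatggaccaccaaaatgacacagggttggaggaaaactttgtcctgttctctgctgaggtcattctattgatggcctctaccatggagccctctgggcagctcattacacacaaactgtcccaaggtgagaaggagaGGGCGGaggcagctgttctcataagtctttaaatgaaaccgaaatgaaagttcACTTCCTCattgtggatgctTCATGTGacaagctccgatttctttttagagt
Ctsd: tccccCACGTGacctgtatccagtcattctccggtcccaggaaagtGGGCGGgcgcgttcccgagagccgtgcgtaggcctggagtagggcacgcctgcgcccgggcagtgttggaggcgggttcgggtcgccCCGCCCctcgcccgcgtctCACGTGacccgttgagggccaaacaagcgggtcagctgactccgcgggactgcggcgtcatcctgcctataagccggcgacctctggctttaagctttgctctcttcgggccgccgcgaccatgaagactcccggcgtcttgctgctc
Ctsa: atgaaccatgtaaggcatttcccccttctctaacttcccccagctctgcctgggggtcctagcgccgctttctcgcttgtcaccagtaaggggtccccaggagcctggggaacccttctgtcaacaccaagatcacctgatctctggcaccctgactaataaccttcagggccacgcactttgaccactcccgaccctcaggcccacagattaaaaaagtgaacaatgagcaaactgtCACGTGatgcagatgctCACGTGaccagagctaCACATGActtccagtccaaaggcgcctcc
The Ctsk window held none of the 7 motifs and 2 CpG dinucleotides, against a median of 7 in all 32851 windows, and its GC content was 43.7%. It ends at 95499259, before the start listed with the FPKM values (95499286), so it does not reach that start. The Ctsl window (chr13:64370471-64370770, minus) likewise lies wholly upstream of the listed gene, whose 5′ end is at 64370306. The Ctss window held the PU.1-type box at -2 from the start, the M-box core at 18, a GC box at -55 and a TATA-type match at -233. The Ctsd window held CACGTG at -245 and -98, the latter within the palindrome, together with 33 CpG dinucleotides. In the Ctsa window shown, CACGTG lay at -12 and 5, both within the palindrome. That window lies wholly inside the listed gene, downstream of its 5′ end at 164832873. The other Ctsa window (chr2:164832622-164832921), which spans that end, held none of the 7 motifs. CACGTG was found in 4 of the 9 member windows (Ctsa, Ctsd, Ctsf and Ctsl) and in 7.15% of all windows, and the palindrome in 2 of 9 and in 0.974%. GAGGAAGT was in 2 of 9 (Ctsc and Ctss) and 3.20% of all, TCATGTG in 2 of 9 (Ctsa and Ctss) and 3.77%, TATAAA in 1 of 9 (Ctss) and 13.6%, GGGCGG in 5 of 9 and 35.7%, and CCAAT in 2 of 9 (Ctsf and Ctsz) and 37.4%. A match describes these letters and is not evidence of binding in the aorta.

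Among the broad lysosomal endopeptidases, cathepsin B, which also trims dipeptides from chain ends and can act outside the lysosome, had the second of the separated groups. Ctsb (ENSMUSG00000021939, plus strand, chr14:63122462-63145919) was at 191, 180 and 181 FPKM in wild-type and at 218, 211 and 213 FPKM in EC-Jag1KO libraries. The 3 EC-Jag1KO values lay close together and above each wild-type value. The means of 184 ± 6.43 and 214 ± 3.57 FPKM (n = 3 each) differed by 16.3%, a log2 fold change of 0.22 (SE 0.09, 95% interval -0.0050 to 0.44, adjusted p = 0.648 in limma). It was 0.20 to 0.25 with each library left out in turn, 0.21 without the Xist-expressing libraries and 0.24 between them. Ctsb rests on 19865 to 26125 reads a library, so counting noise is small beside the spread between libraries. Its 3′ end overlaps Fdft1 on the other strand, which had at most 1487 reads, and as the strand setting of the counting is not given, reads of the pair could be shared.

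Cathepsin L is a potent endopeptidase that also degrades elastin. Ctsl (ENSMUSG00000021477, minus strand, chr13:64363214-64370306) was at 146, 140 and 133 FPKM in wild-type and 135, 142 and 117 FPKM in EC-Jag1KO libraries. The groups overlapped, with EC-Jag1KO replicate 3 lowest, and the log2 fold change of -0.09 (95% interval -0.35 to 0.17) was -0.01 without that library, -0.04 without both Xist-expressing libraries and -0.19 between them. Cathepsin F, a cysteine protease with a long propeptide of cystatin-like fold, was at 34.4, 34.1 and 38.1 FPKM in wild-type and 34.8, 38.8 and 29.97 FPKM in EC-Jag1KO libraries. For Ctsf (ENSMUSG00000083282, plus strand, chr19:4855129-4860912) the same EC-Jag1KO library was again lowest, and the log2 fold change went from -0.05 (95% interval -0.32 to 0.23) to 0.05 without it. It was 0.10 without both Xist-expressing libraries and -0.34 between them.

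Cathepsins H, C and Z are cysteine proteases that remove single residues or dipeptides from chain ends. Cathepsin H is an aminopeptidase, and Ctsh (ENSMUSG00000032359, plus strand, chr9:90054152-90076089) was at 57.0, 72.1 and 74.0 FPKM in wild-type and 77.5, 70.3 and 69.7 FPKM in EC-Jag1KO libraries. Wild-type replicate 1 was the low value, and without it the log2 fold change of 0.11 (95% interval -0.19 to 0.40) became -0.01. Without the Xist-expressing libraries it was 0.20, and between them -0.08. Cathepsin C, or dipeptidyl peptidase I, activates the serine proteases of neutrophils, mast cells and cytotoxic lymphocytes. Ctsc (ENSMUSG00000030560, plus strand, chr7:88278085-88310888) was at 17.6, 20.2 and 15.8 FPKM in wild-type and 16.01, 14.1 and 19.2 FPKM in EC-Jag1KO libraries. Its groups overlapped, with a log2 fold change of -0.12 (95% interval -0.45 to 0.21), with replicate 3 the lowest wild-type and the highest EC-Jag1KO library. Without these 2 Xist-expressing libraries the log2 fold change was -0.31 (adjusted p = 0.423 in limma), and between them it was 0.26. Cathepsin Z is a carboxypeptidase, and Ctsz (ENSMUSG00000016256, minus strand, chr2:174427493-174439039) was at 89.2, 93.0 and 96.0 FPKM in wild-type and 90.2, 94.7 and 77.6 FPKM in EC-Jag1KO libraries. The low value was again EC-Jag1KO replicate 3, and the log2 fold change of -0.09 (95% interval -0.34 to 0.17) was -0.0045 without it and 0.02 without both Xist-expressing libraries, which differed by -0.30.

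The 2 members that are not cysteine proteases varied little. Cathepsin D is the aspartic endopeptidase that carries much of the bulk proteolysis of the lysosome. Ctsd (ENSMUSG00000007891, minus strand, chr7:142371148-142388038) was at 369, 323 and 353 FPKM in wild-type and 395, 366 and 342 FPKM in EC-Jag1KO libraries. The groups overlapped, the coefficient of variation over the 6 libraries was 6.89%, and the log2 fold change was 0.08 (95% interval -0.19 to 0.35). With single libraries left out it ran from 0.02 (wild-type replicate 2) and 0.03 (EC-Jag1KO replicate 1) to 0.13 (EC-Jag1KO replicate 3), and it was 0.14 without both Xist-expressing libraries, which differed by -0.05. Cathepsin A protects beta-galactosidase and neuraminidase 1 in a lysosomal complex. Ctsa (ENSMUSG00000017760, plus strand, chr2:164832873-164841032) was at 41.7, 44.3 and 43.2 FPKM in wild-type and 42.0, 45.6 and 41.5 FPKM in EC-Jag1KO libraries, a coefficient of variation of 3.83%. Only 1.43% of tested genes varied less, and the log2 fold change of -0.0014 had a 95% interval of -0.21 to 0.21. It was 0.03 without the Xist-expressing libraries and -0.06 between them. Ctsk was the most variable member by the same measure, at 19.5%. Pltp (at most 1715 reads) and Neurl2 (at most 82) overlap Ctsa, which had at least 3334 reads. Nelfcd (at most 644 reads) overlaps Ctsz (at least 2715), and Ifitm10 (at most 91) overlaps Ctsd (at least 15511). As with Ctsb, reads could be shared within these pairs, which was not tested. Ctsf, Ctsh, Ctsk and Ctsl overlapped no listed gene.

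Added up, the 10 transcripts came to 979, 941 and 970 FPKM in wild-type and 1053, 1031 and 954 FPKM in EC-Jag1KO libraries. The groups overlapped through EC-Jag1KO replicate 3, and the means were 964 ± 19.6 and 1013 ± 52.0 FPKM (n = 3 each). Ctsd, Ctsb and Ctsl together made up 69.7 ± 2.10% of the sum in wild-type and 70.4 ± 0.654% in EC-Jag1KO aorta. Within the sum, the share of Ctsb was 18.6 to 19.5% in wild-type and 20.4 to 22.3% in EC-Jag1KO libraries, and that of Ctsk 2.26 to 2.79% and 3.32 to 3.61%. Both shares lay higher in each EC-Jag1KO library. The share of Ctsl lay lower, at 13.74 to 14.9% in wild-type and 12.3 to 13.73% in EC-Jag1KO libraries, with ends that nearly touch. Shares of a fixed sum are tied to each other, so a larger share for some members lowers the rest.

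**Figure D3:**
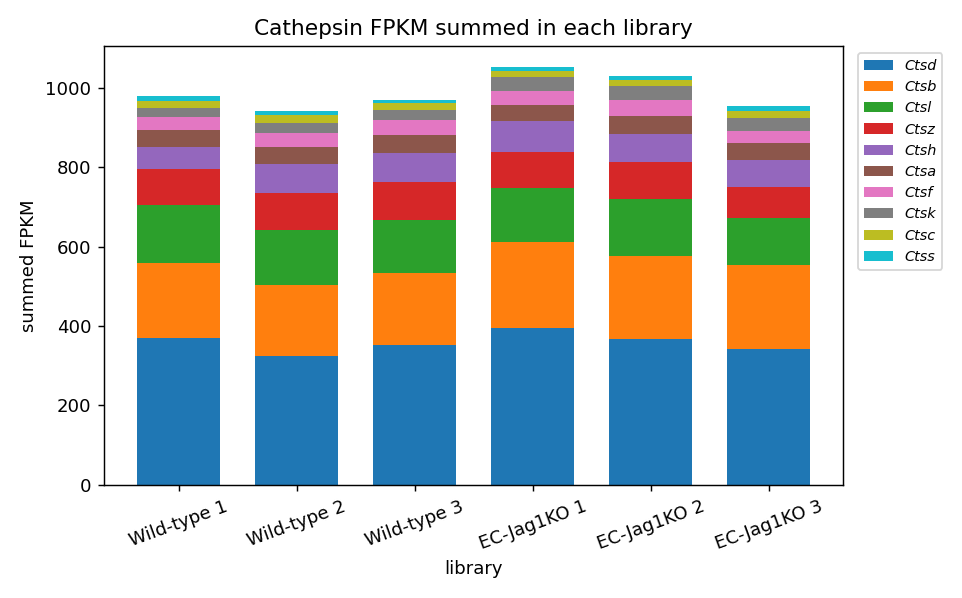
Summed FPKM of the 10 cathepsins in each library as stacked bars, 1 colour a gene, with no error bar since each bar is 1 library. The sums run from 941 to 1053 FPKM, and Ctsd, Ctsb and Ctsl fill most of each bar.

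The members did not share 1 profile over the libraries. Likeness was measured as the root mean square difference between 2 genes' log2(FPKM + 1) values, each centred on its own mean over the 6 libraries, so that 0 is an identical pattern. The closest pair of members was Ctsf and Ctsz at 0.0474, and Ctsl and Ctsa also had Ctsz as their nearest member, at 0.0670 and 0.0772. Ctsk was the member farthest from Ctsa, Ctsc, Ctsd, Ctsf, Ctsl, Ctss and Ctsz, and its own nearest member was Ctsb at 0.178. With 12164 other tested genes to choose from, the nearest gene to each member was never another cathepsin. For Ctsk it was Pamr1 at 0.0566, with 26.1, 33.6 and 31.4 FPKM in wild-type and 41.2, 44.5 and 42.3 FPKM in EC-Jag1KO libraries. For Ctsb it was Fam222b (0.0141), for Ctsd Fbxo18 (0.0217), for Ctsz Hira (0.0248), for Ctsf Abhd16a (0.0231), for Ctsh Chchd6 (0.0293), for Ctsc Sspn (0.0323), for Ctss Knop1 (0.0326) and for Ctsa Gps1 (0.0144). The measure counts the size of a gene's changes as well as their shape. Ctsk had the largest root mean square deviation from its own mean among the members, at 0.255, which adds to its distances. These are nearest matches over 6 points that share libraries and scaling, and they describe the values alone.

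Cystatins are the inhibitors that bind cysteine cathepsins outside the lysosome, and the aorta carried mainly 1 of them. Cst3, the secreted cystatin C, stood at 1265, 1219 and 1294 FPKM in wild-type and at 1037, 1329 and 785 FPKM in EC-Jag1KO libraries, above each cathepsin in each library. Its groups overlapped, with the lowest value in EC-Jag1KO replicate 3 (log2 fold change -0.29, 95% interval -0.77 to 0.18). Cstb, the cytosolic cystatin B, was at 45.8 to 51.7 against 47.6 to 53.5 FPKM, and Kng2, a kininogen with cystatin domains, at 1.68, 0.173 and 2.22 against 3.54, 1.80 and 4.39 FPKM. These were the 3 tested of 16 listed cystatin genes, and 7 of the 16 were at 0 in all libraries. The log2 ratio of Ctsk to Cst3 was -5.84, -5.53 and -5.61 in wild-type and -4.89, -5.16 and -4.59 in EC-Jag1KO libraries. Each EC-Jag1KO library lay above each wild-type library, with means of -5.66 ± 0.159 and -4.88 ± 0.283 (SD, n = 3 each), a difference of 0.78. The exact two-sided permutation test gave p = 0.1, the smallest it can give, and 0.2 adjusted over the 2 ratios tested. With each library left out the difference was 0.64 to 0.92, and without both Xist-expressing libraries it was 0.66.

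**Figure D4:**
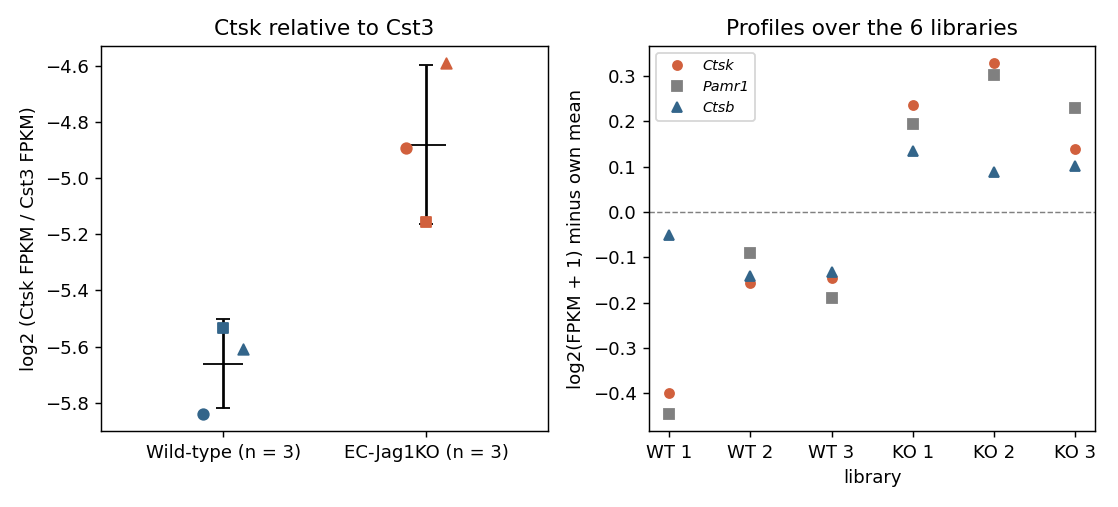
Left, the log2 ratio of Ctsk to Cst3 FPKM in each library with the mean and SD of each group of 3. Right, log2(FPKM + 1) of Ctsk, Ctsb and Pamr1 minus each gene's own mean over the 6 libraries (WT, wild-type, and KO, EC-Jag1KO, with the replicate number), in which all 3 genes lie below 0 in the wild-type libraries and above 0 in the EC-Jag1KO libraries. Pamr1 is the gene and Ctsb the member nearest to Ctsk in these same libraries, so the shared split is no separate support.

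Other cathepsin genes were nearly silent. Of 14 listed, Ctso was the only 1 tested, at 11.2, 10.3 and 9.32 FPKM in wild-type and 10.3, 10.003 and 12.8 FPKM in EC-Jag1KO libraries, with a log2 fold change of 0.09. The groups overlapped, and its level was close to that of Ctss. The cytotoxic lymphocyte gene Ctsw was at 0.129 to 0.481 FPKM, and Ctse, Ctsg, Ctsm and Ctsq reached at most 0.183 FPKM. Napsa, an aspartic protease of lung and kidney, was at 1.43 FPKM in EC-Jag1KO replicate 3 and at most 0.309 FPKM elsewhere. The remaining 7 (Ctsj, Ctsr, Cts3, Cts6, Cts7, Cts8 and Ctsll3) were listed at 0 in each library.

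Genes that activate or accompany cathepsins all overlapped between the groups. Of 6 tested, 4 lay higher and 2 lower, with 0 past an unadjusted p of 0.05 and a median log2 fold change of 0.07. Legumain (Lgmn), the asparaginyl endopeptidase that processes procathepsins, had a log2 fold change of -0.08, prosaposin (Psap), which binds procathepsin D, 0.03, and progranulin (Grn), whose granulin peptides bind cathepsin D, -0.04. The partners of cathepsin A had values of 0.10 (Neu1), 0.24 (Glb1) and 0.10 (Galns). In the mannose 6-phosphate route, 4 of 9 genes lay higher and 5 lower, with a median of -0.06. Nagpa, the uncovering enzyme that completes the mannose 6-phosphate tag, had the smallest p, at 19.4, 18.7 and 21.9 FPKM in wild-type and 15.1, 16.98 and 15.3 FPKM in EC-Jag1KO libraries. Its groups did not overlap, and its log2 fold change was -0.32 (adjusted p = 0.520 in limma). It was the only member of this list with an unadjusted p under 0.05, against 7.71% of all tested genes.

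The rest of the lysosome gave no common direction either. Of 30 other hydrolases, 16 lay higher and 14 lower, with a median of 0.01 and 0 past an unadjusted p of 0.05. Asah1, the acid ceramidase gene, had the smallest p, at 34.9, 25.9 and 29.2 FPKM against 34.2, 38.5 and 37.4 FPKM (log2 fold change 0.29, adjusted p = 0.647 in limma), and Man2b1 and Idua were the 2 whose groups did not overlap, both lower. Of 20 membrane and proton pump genes, 9 lay higher and 11 lower, with a median of -0.02. Tmem192, a lysosomal membrane protein gene, had 6.37, 5.42 and 6.76 FPKM in wild-type and 7.52, 8.596 and 9.72 FPKM in EC-Jag1KO libraries (log2 fold change 0.42, adjusted p = 0.499 in limma). Its groups did not overlap, nor did those of the pump subunit Atp6v1b2, higher, and of Atp6ap1, lower. Tmem192 was the only gene of these 2 lists with an unadjusted p under 0.05. Over all tested genes 13.6% had groups that did not overlap and 7.71% had an unadjusted p under 0.05, so these counts lie near or below the background.

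Transcription factors that act on lysosomal genes were read for the same reason as the promoters. TFEB and TFE3 bind the CLEAR element, MITF is known to act on CTSK in osteoclasts together with NFATC1, and FOXO factors induce cathepsin L in muscle. Tfeb stood at 20.5, 20.3 and 16.9 FPKM in wild-type and 17.5, 21.2 and 13.8 FPKM in EC-Jag1KO libraries, with a log2 fold change of -0.14. Tfe3 (0.02), Mitf (0.01), Nfatc1 (0.23) and Foxo3 (0.31) also overlapped between the groups. Foxo1 was at 14.4, 13.95 and 14.3 FPKM in wild-type and 16.1, 17.5 and 17.3 FPKM in EC-Jag1KO libraries. Its groups did not overlap (log2 fold change 0.24, adjusted p = 0.585 in limma). Of 6 tested regulators (Tfec was too low), 5 lay higher and 1 lower, with a median of 0.12, where 50% of all tested genes lay higher. Foxo1 was the only 1 of the 6 with an unadjusted p under 0.05 in limma, against 7.71% of all tested genes. It was also the only 1 without overlap, against 13.6% of all tested genes. A role of these factors in the cathepsin levels was not tested.

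**Figure D5:**
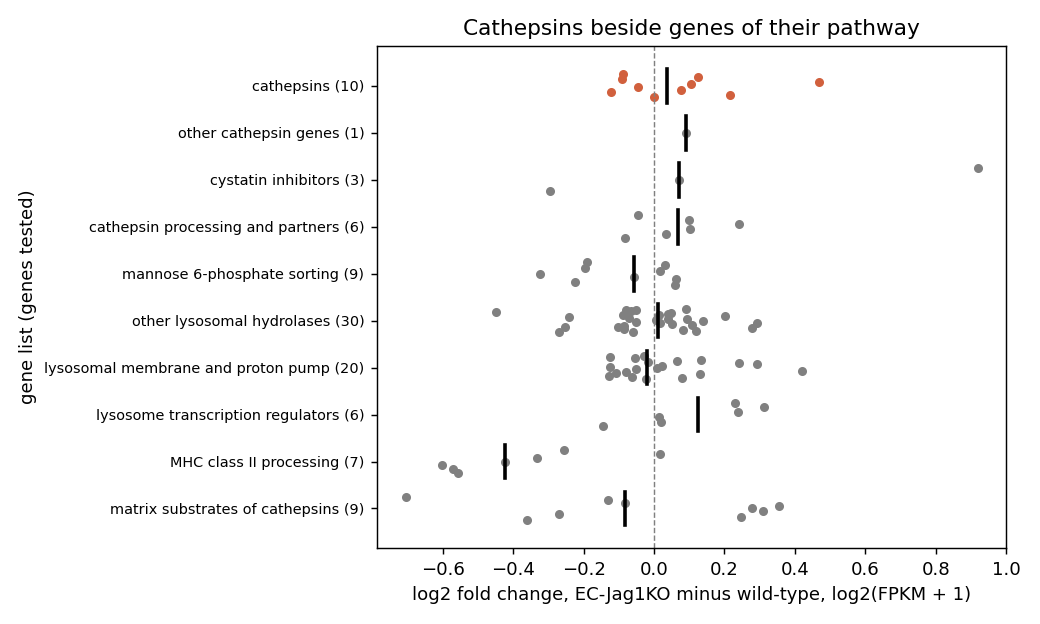
Log2 fold change (EC-Jag1KO minus wild-type, on log2(FPKM + 1)) of each tested gene in the cathepsins and in 9 lists of related genes, with the median of each list as a black bar. The cathepsin median of 0.04 lies near 0, Ctsk at 0.47 is the point farthest right in its row, and the class II row has the lowest median at -0.42.

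Class II antigen processing, in which cathepsins S and L act on the invariant chain, and the matrix proteins that cathepsins cut were read last. Of 7 tested class II genes, 6 lay lower and 1 higher, with a median of -0.42. H2-Ab1 had the smallest p, at 42.6, 33.98 and 62.8 FPKM in wild-type and 25.3, 35.95 and 27.7 FPKM in EC-Jag1KO libraries (log2 fold change -0.60, adjusted p = 0.613 in limma). The groups overlapped, and wild-type replicate 3 was the highest library. The list sums to 223 to 440 FPKM in wild-type and 178 to 265 FPKM in EC-Jag1KO libraries. Ctss, by contrast, had a log2 fold change of 0.13 in the same libraries, though no test of that contrast was made. Of 9 matrix genes, 4 lay higher and 5 lower, with a median of -0.08. Col1a1, a chain of type I collagen, had the smallest p, at 232, 257 and 223 FPKM against 287, 255 and 348 FPKM (log2 fold change 0.31, adjusted p = 0.666 in limma). Eln, the elastin gene, named after its values were seen, was at 829, 863 and 616 FPKM in wild-type and 478, 818 and 531 FPKM in EC-Jag1KO libraries. Both genes overlapped between the groups, and 0 members of any list passed the adjusted test.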

How the data were processed

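Total RNA of mouse aorta was measured in 6 libraries, 3 a group by the genotype in the labels. The authors deposited 1 table of FPKM values, with gene coordinates, lengths and biotypes per the file headers. STAR, HTSeq, edgeR and the build mm10 are named, without roles or versions, per the submitters' processing notes, and the sources used here give no strand setting, annotation release or filter. Each of 211650 values was a whole multiple of 1 read within a tolerance of 0.05 (100%), which gave the depth. Values near the filter rest on few reads, and the number of libraries limits precision more than depth does for the cathepsins.

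From these values log2(FPKM + 1) was computed, so fold changes of low genes are understated. The 12165 genes averaging 1 FPKM or more across all libraries entered a limma fit (version 3.58.1, R 4.3.3) on genotype alone, with variance moderation by intensity, two-sided tests and Benjamini-Hochberg adjustment over all tested genes at 0.05. The fit was checked on simulated data, with planted changes larger than that of any cathepsin and noise independent between libraries. That check does not show how the fit performs on differences as small as those here, or with variation shared across genes. Ratios of single genes were tested with exact two-sided permutation tests. Plots used matplotlib 3.10.9 in Python 3.11.15. RefSeq promoter windows were matched by symbol. Of 203 listed genes all were found in the table, 1 through its gene ID.

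The members, the gene lists and the tests were chosen with earlier results of these data known. The text names all members, the member of smallest unadjusted p in each pathway list, each tested cystatin, partner and regulator, the other cathepsin genes, the nearest gene by profile (for 1 member not reported here), and Jag1; other names are marked as chosen after their values were seen or state a small count. Other settings tried were another pseudocount, filter, scaling or variance model, library weights, a block for the replicate number, voom on recovered reads and each library left out. Xist as a covariate, voom with quality weights and the fit without both Xist-expressing libraries were added after the data were seen.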

Additional observations from a re-analysis of the deposited data

Results flagged for a closer look

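The genotype difference of Ctsc, which encodes dipeptidyl peptidase I, was compared between Xist-expressing libraries (replicate 3 of each group) and the others, and a difference was not shown after adjustment. It was -0.31 on the log2 scale in the other 4 libraries and 0.26 between the 2 Xist-expressing ones, a difference of 0.57 (SE 0.21) with an adjusted interaction p of 0.295 in limma. Ctsc and Ctsf are given here because their groups separated in the other 4 libraries while the Xist-expressing pair differed the opposite way. That choice used the same values as the interaction, so its p is no independent support. Both genes had an unadjusted interaction p under 0.05 in limma. Ctsf, which encodes cathepsin F, lay the other way, at 0.10 against -0.34, a difference of -0.44 (SE 0.17, adjusted p = 0.325 in limma). The Xist-expressing part of each contrast is 1 library against 1. Over all tested genes 1866 (15.3%) had an interaction with an unadjusted p under 0.05 and 4 passed the adjusted threshold, and 2 of 10 cathepsins is near that background. EC-Jag1KO replicate 3, 1 of the 2 Xist-expressing libraries, also stood apart from all others, and the effects of Xist status and of that library cannot be told apart.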

How the results depend on the processing

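Of 0 cathepsins past the adjusted threshold, each alternative kept 0 (leaving out each library in turn gave 0 to 0) except array weights, which gave 2, Ctsk (0.52, adjusted p = 0.0122) and Ctsb (0.22, adjusted p = 0.0436). Array weights also raised the calls over all genes from 0 to 1647, and their estimation stopped before it converged. Calls over all genes were 1 with Xist as a covariate, 43 with voom and quality weights (where Ctsk had an adjusted p of 0.0634), 2 without both Xist-expressing libraries and 0 to 4 with each library left out, the 4 without EC-Jag1KO replicate 1. At an unadjusted p under 0.05 over all genes there were 938, and 588 to 1437 with each library left out, lowest when EC-Jag1KO replicate 1 was left out (604 when it was wild-type replicate 2) and highest when it was EC-Jag1KO replicate 2. The 1 cathepsin past the unadjusted threshold became 2 with no filter, no variance trend, voom, voom with quality weights or without both Xist-expressing libraries, 3 with array weights, and 1 to 2 with each library left out. The second was Ctsb in each of these settings except without both Xist-expressing libraries, where it was Ctsc, and the third under array weights was Ctsh. Of 5 cathepsins higher in EC-Jag1KO there were 8 without both Xist-expressing libraries and 4 to 7 with each library left out. The members' median was -0.02 to 0.06 with each library left out.

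Estimates near 0 changed sign. Ctsa was 0.015 under quantile normalization, 0.027 without both Xist-expressing libraries and -0.043 to 0.024 with each library left out. Ctsf was 0.0012 with voom and quality weights, 0.10 without both Xist-expressing libraries and -0.13 to 0.050 with each library left out. Ctsh was -0.011 to 0.17 with each library left out, Ctss was -0.069 with array weights and -0.017 with voom and quality weights, and Ctsz was 0.021 without both Xist-expressing libraries. The cause was not tested. Ctsk stayed between 0.39 and 0.56 in all settings run, and Ctsd was 0.025 to 0.13 with each library left out.

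Deviations of same-numbered libraries showed little correlation across genes (0.055, 0.051 and -0.050). This does not settle whether the libraries were paired, and replicate 3 of each group shared Xist expression. With the replicate block 0 genes passed, 842 had an unadjusted p under 0.05, and Ctsk was 0.47 with an adjusted p of 0.526 in limma. The 2 planned edgeR fits on recovered reads were not run, since the deposited unit is FPKM; voom used those reads instead.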
